A study of Sus scrofa with 18 samples.

Results

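Adrenoceptors are the membrane receptors through which noradrenaline and adrenaline act on the uterus. The 8 adrenoceptor genes described here are ADRA1A, ADRA1B, ADRA1D, ADRA2A, ADRA2B, ADRA2C, ADRB1 and ADRB3, out of 28210 RefSeq genes placed on the named chromosomes of the Sscrofa11.1 assembly. They were chosen by name, and every peak from 20 kb before to 20 kb after each gene was collected from 6 peak lists. The study mapped 2 histone modifications in the myometrium, the muscle wall of the uterus, with CUT&Tag, in which an antibody guides a transposase to the modified nucleosomes. H3K4me3 is found mainly at active promoters, and H3K27ac at active promoters and enhancers. The question was how both marks differ between the muscle layers in pregnancy and between pregnant and cyclic muscle around implantation.

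The samples came from Yorkshire gilts, and each consisted of muscle of the mesometrial side from which the endometrium had been removed. GD15M_CM is the circular muscle on day 15 of pregnancy after natural mating, GD15M_LM is the longitudinal muscle of the same stage, and CD15M_CM is the circular muscle on day 15 of the estrous cycle. Longitudinal muscle of cyclic gilts was not analysed here. Each group had 2 gilts per mark (12 libraries) and 2 IgG controls (6 libraries), 18 in all. The authors pooled both gilts before peak calling, so each group and mark is 1 list here. From these lists no value per gilt, SD or test between groups can be given. The study itself tested which regions differed between the groups. It reported more H3K4me3 at the ADRA2A promoter in longitudinal than in circular muscle of pregnancy. Those tests were not used here. The differences below therefore describe these 6 lists, which do not show the spread between gilts.

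Sympathetic nerves release noradrenaline into the myometrium. Alpha-1 receptors couple to Gq proteins, which raise calcium and make smooth muscle contract. Alpha-2 receptors couple to Gi proteins, which lower cyclic AMP, and beta receptors couple to Gs proteins, which raise cyclic AMP and relax the muscle, so the response of the uterus to the same transmitter depends on which receptors its cells carry.

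The H3K4me3 lists of GD15M_CM, GD15M_LM and CD15M_CM held 33599, 31910 and 36331 peaks, and the H3K27ac lists 79877, 57010 and 82037. The height of a peak is its fold enrichment over IgG. How the libraries were scaled to each other is not stated, so the peaks were compared by percentile, the rank of a peak by fold enrichment within its own list, where 100 is the highest peak and 0 stands for no peak. H3K4me3 less than 3 kb from a gene end was found at 57.3%, 58.2% and 59.1% of all placed genes in GD15M_CM, GD15M_LM and CD15M_CM. All 10 smooth muscle markers carried it in every tissue. Among them MYH11, the smooth muscle myosin heavy chain, was at percentile 79.1 in GD15M_CM, 96.7 in GD15M_LM and 94.5 in CD15M_CM. All 8 epithelial markers also had an H3K4me3 peak in every tissue, with median percentiles of 79.4, 58.7 and 78.0 in the same order, and the epithelial keratin KRT8 was at 81.4, 59.0 and 84.5. Which cells carried these peaks was not tested, and in bulk tissue fewer cells of a type and less mark per cell cannot be told apart.

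In total 70 peaks lay within 20 kb of the adrenoceptor genes, 32 of H3K4me3 and 38 of H3K27ac. The same 7 genes had an H3K4me3 peak in all tissues, and ADRB3 had none. The background, the share of all placed genes with such a peak, was 69.3%, 70.5% and 70.8% for GD15M_CM, GD15M_LM and CD15M_CM. H3K27ac peaks were found near 4 of the 8 genes in GD15M_CM (background 73%), 5 in GD15M_LM (71.8%) and 6 in CD15M_CM (75.4%). ADRA1A and ADRB1 had no H3K27ac peak in any tissue, although both had H3K4me3. With only peaks of fold enrichment 5 or more and -log10 p 10 or more kept, H3K27ac was left at 0 genes in GD15M_CM and at 1 gene, ADRA2A, in GD15M_LM and CD15M_CM. Under the same threshold H3K4me3 was left at 4 genes in GD15M_CM, namely ADRA1B, ADRA1D, ADRA2A and ADRB1, at 6 in GD15M_LM and at 5 in CD15M_CM. Of all H3K27ac peaks the threshold kept 9711 of 79877 in GD15M_CM, 11306 of 57010 in GD15M_LM and 10200 of 82037 in CD15M_CM. The share of all genes left under it was not computed, so these counts have no background.

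The marks also differed in where their peaks lay. Of the 32 H3K4me3 peaks, 25 overlapped the gene and 25 were within 3 kb of one of its ends, with a median length of 1483.5 bp and a median percentile of 49.7. Of the 38 H3K27ac peaks, 17 overlapped the gene and 21 were within 3 kb of an end, with a median length of 488.5 bp and a median percentile of 30.9. Joined across tissues, the H3K4me3 peaks made up 12 sites, of which 7 were present in all 3 tissues. The H3K27ac peaks made up 22 sites, of which 4 were present in all 3 tissues, 7 in 2 and 11 in 1, and 8 of these 11 were found in CD15M_CM, the longest list. None of the 12 H3K4me3 sites was found in GD15M_CM alone, whereas 3 were found in GD15M_LM alone. These 3 were low in their list, at percentile 1.75 at ADRA1D and at 8.88 and 25.2 after ADRA2A. Sites were not counted over all genes, so these site counts have no background and describe the receptor genes only. Near a gene end, less than 3 kb away, 6 of the 8 genes had H3K4me3 in each tissue (background 57.3%, 58.2% and 59.1% for GD15M_CM, GD15M_LM and CD15M_CM). For H3K27ac the numbers were 3, 3 and 5 (background 59.3%, 57.5% and 61%). With 8 genes, these counts were close to the background or, for H3K27ac in GD15M_CM and GD15M_LM, 3 of 8 against more than 57% of all genes.

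**Figure D1:**
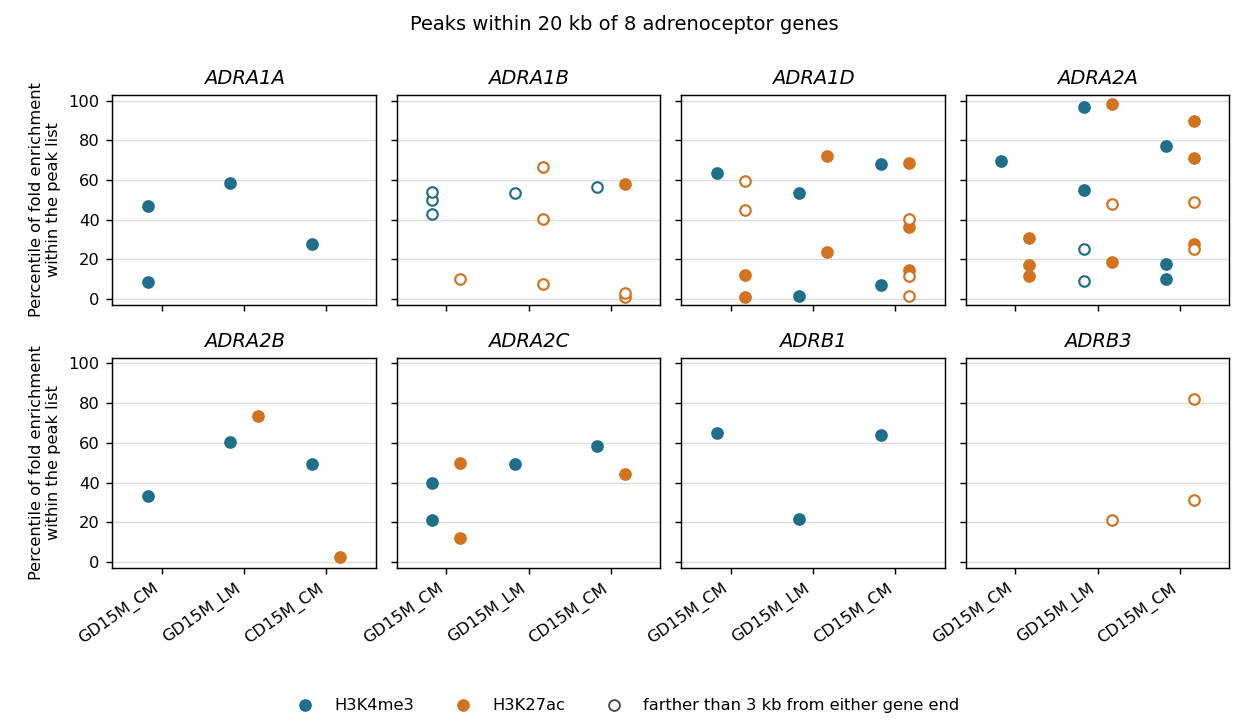
Percentile of fold enrichment within the peak list (vertical axis, 0 to 100) of each peak within 20 kb of the 8 adrenoceptor genes, by tissue, with H3K4me3 in blue and H3K27ac in orange. Filled points lie within 3 kb of a gene end and open points farther away. The highest points of both marks are those of ADRA2A in GD15M_LM (96.7 and 98.4), and ADRB3 has open H3K27ac points only.

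ADRA1A encodes the alpha-1A receptor, a contractile receptor of smooth muscle. The gene lies at chr14:10623391-10733378 and has 15 RefSeq transcripts. Its H3K4me3 was at the end of higher coordinate in every tissue. In GD15M_CM a peak of 1171 bp with fold enrichment 4.55 (percentile 46.7) and a shorter one of 234 bp (2.82, percentile 8.55) lay 696 and 295 bp inside this end. In GD15M_LM there was 1 peak of 1392 bp with fold enrichment 8.26 (percentile 58.2), and in CD15M_CM 1 peak of 1873 bp with 3.44 (percentile 27.5). Among the strongest peaks of the 3 tissues, the longest, that of CD15M_CM, had the lowest percentile. The nearest H3K27ac peak was 55.3 kb before the gene in GD15M_CM, 72.4 kb in GD15M_LM and 55.3 kb in CD15M_CM.

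ADRA1B encodes the alpha-1B receptor, also coupled to Gq. Its model at chr16:63550123-64010838 is 460.716 kb long, and 4 other genes, 3 lncRNAs and a pseudogene, lie within it. H3K4me3 was not at either end but about 50 kb inside the model. In GD15M_CM there were 3 neighbouring peaks of 382, 1029 and 1613 bp (percentiles 42.7, 49.8 and 53.7), in GD15M_LM a single peak of 3855 bp (53.3) and in CD15M_CM a single peak of 3191 bp (56.5). The site ranked alike in the 3 tissues, and GD15M_CM differed in how it was divided. Within the same site a short H3K27ac peak was at percentile 10.2 in GD15M_CM, 40.3 in GD15M_LM and 0.787 in CD15M_CM. Higher H3K27ac percentiles were found elsewhere in the model, in GD15M_LM 262.7 kb from its lower end (210 bp, percentile 66.4) and in CD15M_CM 570 bp from that end (517 bp, percentile 58.1).

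ADRA1D encodes the alpha-1D receptor, the remaining Gq-coupled subtype, and lies at chr17:31517021-31537361. Its H3K4me3 peak spanned the end of lower coordinate. It was 1515 bp long in GD15M_CM with fold enrichment 8.04 (percentile 63.4), 1483 bp in GD15M_LM with 6.50 (53.6) and 2460 bp in CD15M_CM with 11.13 (67.9). H3K27ac was instead near the opposite end, where a peak that stopped 2149 to 2347 bp short of the gene end was at percentile 1.11 in GD15M_CM, 72.1 in GD15M_LM and 68.5 in CD15M_CM. Only in CD15M_CM was there also an H3K27ac peak at the H3K4me3 site (215 bp, percentile 36.2). The strongest peaks of both marks were thus at different ends of this gene, and the H3K4me3 peak at the H3K27ac end, found in CD15M_CM, was at percentile 6.85. Farther out, 11.5 to 15.5 kb after the gene and before or over the nearer end of SMOX, a polyamine oxidase gene 15.6 kb away, GD15M_CM had 2 H3K27ac peaks (percentiles 45.1 and 59.3), CD15M_CM had 3 (11.8, 40.4 and 1.55) and GD15M_LM had none. Whether these belong to ADRA1D or to SMOX was not tested.

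ADRA2A encodes the alpha-2A receptor, known as an inhibitory receptor on noradrenergic nerve endings and also present on smooth muscle. Its model at chr14:121469572-121470924 is 1353 bp long, a multiple of 3 with 1 transcript, so it may hold the coding length only. A single H3K4me3 peak covered the whole model in each tissue. It was 3703 bp long with fold enrichment 10.98 (percentile 69.7) in GD15M_CM, 5637 bp with 32.4 (percentile 96.7) in GD15M_LM and 5105 bp with 16.8 (percentile 77.2) in CD15M_CM. These were the highest H3K4me3 percentiles of the 8 genes in each of the 3 tissues. In GD15M_CM the peak began 2143 bp before the model and ended 207 bp after it. The corresponding distances were 2927 and 1357 bp in GD15M_LM, and 2556 and 1196 bp in CD15M_CM. GD15M_LM was highest and widest on both sides, GD15M_CM lowest and narrowest, and CD15M_CM lay between them.

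H3K27ac at ADRA2A had a different form in GD15M_CM. There, 2 weak peaks lay at the gene, one of 2806 bp with fold enrichment 2.74 (percentile 17.1) that reached only 6 bp into the model, and one of 466 bp with 3.05 (percentile 30.5) inside it. In GD15M_LM and CD15M_CM a single peak covered the model, 4262 bp with fold enrichment 8.65 (percentile 98.4) and 4665 bp with 5.35 (percentile 89.5). For H3K27ac, the percentile of CD15M_CM was therefore nearer to GD15M_LM, whereas for H3K4me3 it was nearer to GD15M_CM. H3K27ac peaks within 20 kb covered 70.6% of the H3K4me3 bases in GD15M_CM, 60.1% in GD15M_LM and 90.2% in CD15M_CM.

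A group of smaller peaks followed ADRA2A on the side of higher coordinate. In GD15M_LM, H3K4me3 peaks began 1699 bp (1484 bp long, fold enrichment 6.89, percentile 54.8), 3382 bp (percentile 8.88) and 4079 bp (percentile 25.2) after the gene. CD15M_CM had 1 such peak of 200 bp (percentile 17.5) and GD15M_CM none. For H3K27ac, the strongest peak of this group was in CD15M_CM, 2568 bp after the gene (1135 bp, fold enrichment 4.18, percentile 71.3), while the same site was at percentile 11.4 in GD15M_CM and 18.6 in GD15M_LM. The lncRNA LOC102167253 begins 6584 bp after ADRA2A, and only CD15M_CM had a peak there (H3K27ac, 590 bp, percentile 25.4). A further H3K27ac peak 4.1 to 4.3 kb after the gene was at 47.7 in GD15M_LM and 48.6 in CD15M_CM and absent from the GD15M_CM list. For H3K27ac, the tissue of highest rank was thus GD15M_LM at the gene and CD15M_CM at the site after it.

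**Figure D2:**
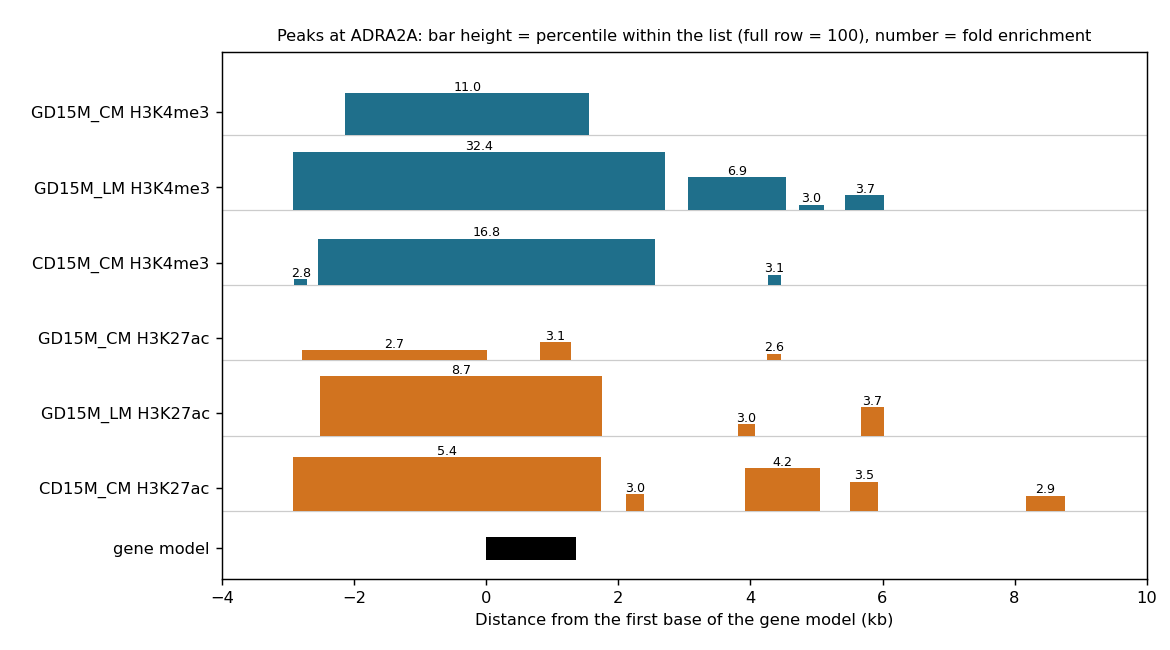
Peaks at ADRA2A by list, with distance from the first base of the gene model in kb on the horizontal axis. Each bar spans a peak, its height is the percentile within the list and the number above it is the fold enrichment. The gene model is the black bar. The H3K4me3 peak is widest and highest in GD15M_LM (32.4), and H3K27ac in GD15M_CM consists of short or low peaks of fold enrichment 2.7, 3.1 and 2.6.

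ADRA2B encodes the alpha-2B receptor and lies at chr3:45760966-45762306. Its H3K4me3 peak lay at the end of lower coordinate, 914 bp long with fold enrichment 3.77 (percentile 33.1) in GD15M_CM, 1217 bp with 9.40 (60.5) in GD15M_LM and 1530 bp with 4.63 (49.5) in CD15M_CM. In GD15M_CM it stopped 88 bp before the model, and in the other tissues it reached 190 and 222 bp into it. H3K27ac at this site was absent from the GD15M_CM list, at fold enrichment 4.77 (percentile 73.7) in GD15M_LM and at 2.26 (percentile 2.23) in CD15M_CM. Both marks ranked highest in GD15M_LM, as at ADRA2A, but here CD15M_CM was near the bottom of its H3K27ac list.

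ADRA2C encodes the alpha-2C receptor, the remaining Gi-coupled subtype, at chr8:2320125-2322162. In GD15M_CM, H3K4me3 was split into a peak of 323 bp before the gene (fold enrichment 4.10, percentile 39.7) and one of 1089 bp over its end of lower coordinate (3.32, percentile 20.9). GD15M_LM had 1 peak of 1707 bp (5.56, percentile 49.5) and CD15M_CM 1 peak of 2568 bp (5.99, percentile 58.5). The protein-coding gene LOC106504574 ends 692 bp before ADRA2C, so the part of this site that belongs to either gene cannot be told apart. H3K27ac lay on the other side, 1.2 to 2.1 kb after the gene, at percentiles 50.1 and 12.05 in GD15M_CM and 44.3 in CD15M_CM, and GD15M_LM had no such peak. The marks did not overlap at ADRA2C in any tissue.

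ADRB1 encodes the beta-1 receptor, best known from the heart, and lies at chr14:124400330-124401739. One H3K4me3 peak covered the whole model in each tissue. It was 3330 bp long with fold enrichment 8.82 (percentile 65.2) in GD15M_CM, 2330 bp with 3.61 (percentile 21.7) in GD15M_LM and 3413 bp with 8.70 (percentile 64.2) in CD15M_CM. The circular muscle lists were within 1.005 percentile points of each other, and GD15M_LM was below both. The nearest H3K27ac peak was 117 to 119 kb after the gene in all 3 tissues.

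ADRB3 encodes the beta-3 receptor, known for its part in fat cells and in relaxation of smooth muscle, and lies at chr15:48468803-48478370. The nearest H3K4me3 peak was outside the window, 22.7 kb before the gene in GD15M_CM (percentile 34.5), 24.8 kb in GD15M_LM (88.5) and 23.5 kb in CD15M_CM (15.4). H3K27ac was present 11.5 to 11.8 kb before the gene, at percentile 21.2 in GD15M_LM (343 bp) and 82.2 in CD15M_CM (988 bp), and CD15M_CM had another peak 18.6 kb before it (percentile 31.2). GD15M_CM had no peak in the window, and its nearest H3K27ac peak lay just outside, at 20.4 kb (percentile 62.6). The peaks nearest to the limit of 20 kb in the other direction were H3K27ac peaks after ADRA1D, at 15.1 kb (percentile 59.3) and 15.5 kb (1.55) inside it and at 20.9 kb (22.5) and 21.9 kb (49.2) outside it.

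**Figure D3:**
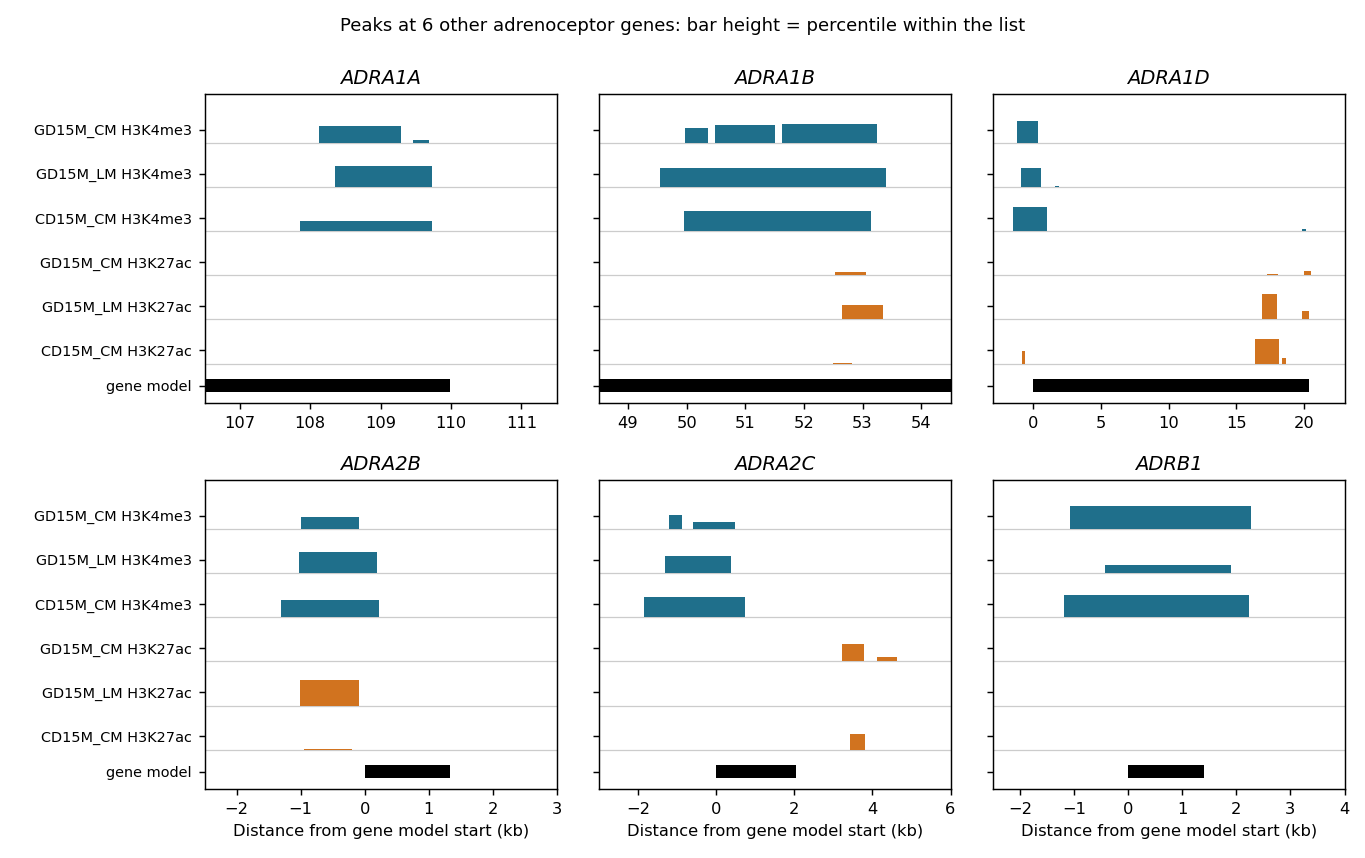
Peaks at 6 adrenoceptor genes other than ADRA2A, with distance from the lower-coordinate end of the gene model in kb (a different range in each panel) and bar height as percentile within the list. The black bar is the gene model. Peaks beyond the shown range are left out. ADRB1 has H3K4me3 over the whole model in all tissues and no H3K27ac, and the strongest peaks of both marks lie at opposite ends of ADRA1D.

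The lists were then compared gene by gene, using the highest percentile among peaks within 3 kb of either gene end and calling a gene higher in one list when the difference was at least 10 percentile points. Between the layers of pregnant muscle, 3 of the 6 receptor genes with H3K4me3 there ranked higher in GD15M_LM, namely ADRA2A, ADRA2B and ADRA1A (background 20.2% of all genes compared), and 1, ADRB1, ranked higher in GD15M_CM (background 21.4%). The differences, longitudinal minus circular, were 27 points at ADRA2A, 27.4 at ADRA2B, 11.5 at ADRA1A and -43.5 at ADRB1. ADRA2C (9.73) and ADRA1D (-9.78) were just under the limit of 10 points. The median over all 16851 genes compared was -0.47 points. A difference as large as that of ADRA2A in the same direction was seen at 829 of these genes (4.92%), and one as large as that of ADRB1 at 272 (1.61%). Ranked by -log10 p, the differences were 11.096 at ADRA2B, 20.4 at ADRA1A and -28.2 at ADRB1, and all remained beyond 10 points.

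For H3K27ac, 3 of the 4 receptor genes with a peak near an end ranked higher in GD15M_LM, namely ADRA2A, ADRA2B and ADRA1D (background 24%), and 1, ADRA2C, ranked higher in GD15M_CM (background 34.8%). The differences were 67.9 points at ADRA2A, 73.7 at ADRA2B, 60.1 at ADRA1D and -50.1 at ADRA2C, beside a median of -2.37 over 17491 genes. With a window of 1 kb around either gene end, the ADRA1D difference was 11.8. A difference as large as that of ADRA2A was seen at 298 genes (1.70%), and one as large as that of ADRA2B at 181 (1.03%). ADRA2A and ADRA2B were the genes called for both marks in the same direction. The 2 lists of a mark share no library, but both marks were measured in the same groups. Over the 20 kb window, 5 of 6 genes ranked higher in GD15M_LM (background 18.8%), with ADRA1B and ADRB3 added, and ADRA2C alone ranked higher in GD15M_CM (background 28.3%).

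**Figure D4:**
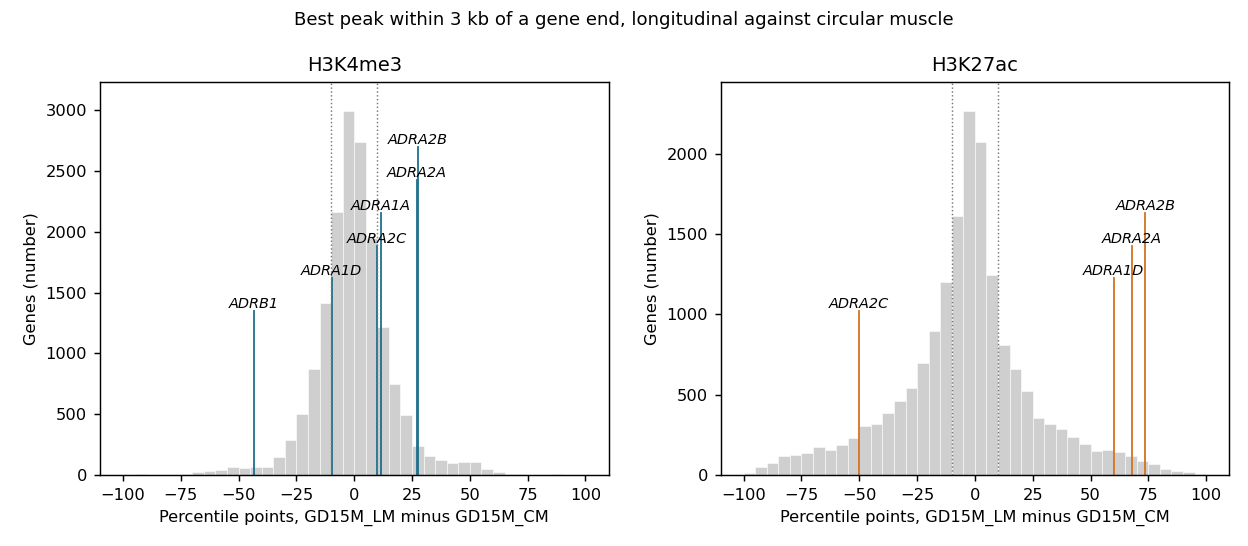
Number of genes (vertical axis) by difference in percentile points, GD15M_LM minus GD15M_CM, of the best peak within 3 kb of a gene end, for H3K4me3 (left) and H3K27ac (right). Grey bars are all genes with a peak in either list, dotted lines mark 10 points in either direction and coloured lines mark the adrenoceptor genes. ADRA2A and ADRA2B lie to the right in both panels, and ADRB1 to the left for H3K4me3 (-43.5).

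Cell type markers were compared between the layers in the same way. The backgrounds were 20.2% for higher in GD15M_LM and 21.4% for higher in GD15M_CM for H3K4me3, and 24% and 34.8% for H3K27ac. For H3K4me3, 5 of 10 smooth muscle markers and 4 of 6 mural cell markers ranked higher in GD15M_LM and none in GD15M_CM, with medians of 90.1 against 77.0 and of 84.0 against 70.8. For H3K27ac, 5 smooth muscle markers ranked higher in GD15M_LM and 2 in GD15M_CM, MYH11 (-28.6 points, GD15M_LM minus GD15M_CM) and SMTN (-14.5), and 3 mural cell markers ranked higher in GD15M_LM and 1, NOTCH3 (-31.6), in GD15M_CM. All 8 epithelial markers ranked higher in GD15M_CM, and so did 7 of 8 for H3K27ac (median 13.6 in GD15M_LM and 75.5 in GD15M_CM). Of 8 endothelial markers, 6 had an H3K4me3 peak, 2 of them higher in GD15M_LM, and of 8 leukocyte markers 2 were higher in GD15M_CM. Of the 3 placed mesothelial markers 1 was higher in GD15M_CM. With so few markers, the endothelial, leukocyte and mesothelial counts were close to the background. Markers of neurons and glia, which could carry alpha-2 receptors on nerve endings, had few peaks: of 7 placed, 1 had H3K4me3 in GD15M_CM, 2 in GD15M_LM and 3 in CD15M_CM, and at most 2 had H3K27ac. The part of the cell mixture in the differences at the receptor genes was not tested.

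GD15M_CM was next compared with CD15M_CM, the circular muscle of cyclic gilts. This comparison uses the same GD15M_CM lists as the comparison of layers, so the results are not independent. For H3K4me3, 1 of 6 receptor genes ranked higher in GD15M_CM, ADRA1A by 19.2 points (background 12.7%), and 2 ranked higher in CD15M_CM, ADRA2B by 16.4 and ADRA2C by 18.8 (background 24.1%). The call at ADRA1A turned when peaks were ranked by -log10 p, with a difference of -7.09. The call at ADRA2C ended under this ranking (-9.81) and under the stricter threshold (-8.63), and no H3K4me3 call of this comparison reached 20 points. At ADRA2B the difference was -10.04 under this ranking. Its peaks, of fold enrichment 3.77 in GD15M_CM and 4.63 in CD15M_CM, did not pass the stricter threshold. ADRA2A differed by 7.49 points in favour of CD15M_CM and ADRB1 by 1.005 in favour of GD15M_CM, beside a median of -2.17 over all genes, and neither was called. At least as large a difference as that of ADRA2A in the same direction was seen at 31.3% of genes.

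For H3K27ac the same comparison called 3 of 5 receptor genes, all higher in CD15M_CM (background 28.5%), and 0 higher in GD15M_CM (background 28.1%). They were ADRA2A, at 30.5 in GD15M_CM and 89.5 in CD15M_CM, ADRA1B, at 0 and 58.1, and ADRA1D, at 12.05 and 68.5. The differences of 56.4 to 59.0 points were reached in this direction by 3.89% to 4.39% of the 17922 genes compared. These differences were not tested here. The study's own test of this comparison found far fewer differing regions for H3K27ac than for H3K4me3. It found no differing H3K27ac region within 3 kb of the start of a differentially expressed gene. With a window of 1 kb, the ADRA1D difference was -24.2. Over the 20 kb window ADRA1D was not called, at 59.3 in GD15M_CM and 68.5 in CD15M_CM, and ADRB3 (0 and 82.2) was. At the H3K4me3 site of ADRA1B, H3K27ac was at 10.2 in GD15M_CM and 0.787 in CD15M_CM, the other direction. ADRA2B and ADRA2C differed by less than 10 points. The H3K27ac medians of the epithelial markers were 75.5 in GD15M_CM and 70.9 in CD15M_CM. Of 10 smooth muscle markers, 5 ranked higher in CD15M_CM (background 28.5%) and 1 in GD15M_CM (background 28.1%). What part this has in the receptor values was not tested.

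GD15M_LM and CD15M_CM differ in both layer and pregnancy, so what contributes to a difference between them cannot be told apart. For H3K4me3, ADRA1A, ADRA2A and ADRA2B ranked higher in GD15M_LM (3 of 6, background 12.8%) by 30.8, 19.5 and 11.02 points, and ADRA1D and ADRB1 higher in CD15M_CM (2 of 6, background 25.2%) by 14.3 and 42.5. Ranked by -log10 p, the difference was 1.06 at ADRA2B, which ended its call, and 13.3 at ADRA1A, and with lists of equal length it was -9.88 at ADRA1D, which ended that call. For H3K27ac, ADRA2B ranked higher in GD15M_LM by 71.4 points (1 of 5, background 23.4%), and ADRA1B and ADRA2C higher in CD15M_CM (2 of 5, background 35.1%) by 58.1 and 44.3. Over the 20 kb window ADRA1B was not called, at 66.4 in GD15M_LM and 58.1 in CD15M_CM, and ADRB3 (21.2 and 82.2) was. At the H3K4me3 site of ADRA1B, H3K27ac was at 40.3 in GD15M_LM and 0.787 in CD15M_CM, the other direction. ADRA2A, called between the layers of pregnant muscle for this mark, differed by 8.90 points here. Under the stricter threshold named above, the same difference was 70.4.

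ADRA2A was set beside the other genes over all 6 lists. In GD15M_LM its H3K4me3 percentile of 96.7 was followed by ADRA2B at 60.5, ADRA1A at 58.2, ADRA1D at 53.6, ADRA1B at 53.3, ADRA2C at 49.5 and ADRB1 at 21.7. In GD15M_CM the distance was smaller, with ADRA2A at 69.7 before ADRB1 at 65.2 and ADRA1D at 63.4, and in CD15M_CM it was at 77.2 before ADRA1D at 67.9 and ADRB1 at 64.2. ADRA2A thus had the highest H3K4me3 rank of the family in each tissue, with the widest gap to the next gene in GD15M_LM. Without a value per gilt, it cannot be said which neighbours in these orders differ. By mean absolute difference of the 6 percentiles within 3 kb of a gene end, ADRA1D was the receptor gene nearest to ADRA2A (20.7 points) and, of the 6 others with a peak there in any list, ADRA1B the farthest (67.3). ADRA1B has 0 for H3K4me3 in this window, and ADRB3, with no peak there in any list, was left out. Of the 15242 protein-coding genes compared, the 5 nearest to ADRA2A were IGSF9B (2.99 points), ROR2 (3.87), ADAMTS15 (4.05), DMTF1 (4.10) and PCDH18 (4.16).

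Genes that act before and after the receptors were looked up in the same way, with 47 genes in 6 groups, all of them placed. Between the layers, 7 of 40 genes with H3K4me3 near an end ranked higher in GD15M_LM and 5 in GD15M_CM (median 1.18 points), both shares below the background of 20.2% and 21.4%. For H3K27ac 8 of 38 ranked higher in GD15M_LM and 18 in GD15M_CM (median -7.56), beside backgrounds of 24% and 34.8%. For H3K27ac more of the signalling genes were called higher in GD15M_CM than in GD15M_LM, which was also the direction of the background. ADRA2A and ADRA2B were called in the other direction.

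The 4 genes of noradrenaline synthesis and handling with H3K4me3 had a median difference of -8.97 points, and 1 ranked higher in GD15M_CM. For H3K27ac, MAOA and MAOB, the monoamine oxidases that break noradrenaline down, went in opposite directions. MAOA was at 79.2 in GD15M_LM, 23.5 in GD15M_CM and 70.3 in CD15M_CM, and MAOB at 31.0, 76.4 and 32.2. In both cases CD15M_CM was nearer to GD15M_LM.

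None of the 5 genes of the Gi/o family, the partners of alpha-2 receptors, was called for H3K4me3, and 2 were called in each direction for H3K27ac (background 24% and 34.8%). Of the 4 Gq family genes, the partners of alpha-1 receptors, 3 ranked higher in GD15M_CM for H3K27ac (background 34.8%), among them GNA11 at 17.6 in GD15M_LM, 99.4 in GD15M_CM and 93.9 in CD15M_CM. Of the 10 genes of Gs and adenylate cyclase with H3K4me3, 4 ranked higher in GD15M_LM and 1 in GD15M_CM (background 20.2% and 21.4%). The cyclases ADCY8 and ADCY1 were at 63.9 and 56.1 in GD15M_LM and had no such peak in GD15M_CM, and GNAS, the Gs alpha subunit, was at 46.5 and 4.22. GNAL, which encodes a Gs-like alpha subunit, was the gene higher in GD15M_CM (29.9, with no peak in GD15M_LM). ADCY8 was also among the largest H3K27ac differences, at 62.5 in GD15M_LM and with no peak in GD15M_CM.

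Among the 11 receptor kinases, arrestins and RGS proteins, which end receptor signals, 2 ranked higher in each layer for H3K4me3, close to the background of 20.2% and 21.4%. RGS16 was at 71.3 in GD15M_LM and 83.6 in GD15M_CM, and GRK6, a receptor kinase, at 78.9 and 90.7. For H3K27ac ARRB1, an arrestin, was at 73.5 in GD15M_LM and 17.9 in GD15M_CM, whereas RGS4, which speeds the shut-off of Gi and Gq proteins, was at 14.5 and 89.9. All 6 protein kinase A genes differed by less than 10 points for H3K4me3, and 4 of 6 ranked higher in GD15M_CM for H3K27ac (median -20.9, background 34.8%). Between GD15M_CM and CD15M_CM, 8 of 40 pathway genes ranked higher in GD15M_CM and 11 in CD15M_CM for H3K4me3 (background 12.7% and 24.1%), and 11 and 16 of 40 for H3K27ac (background 28.1% and 28.5%).

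**Figure D5:**
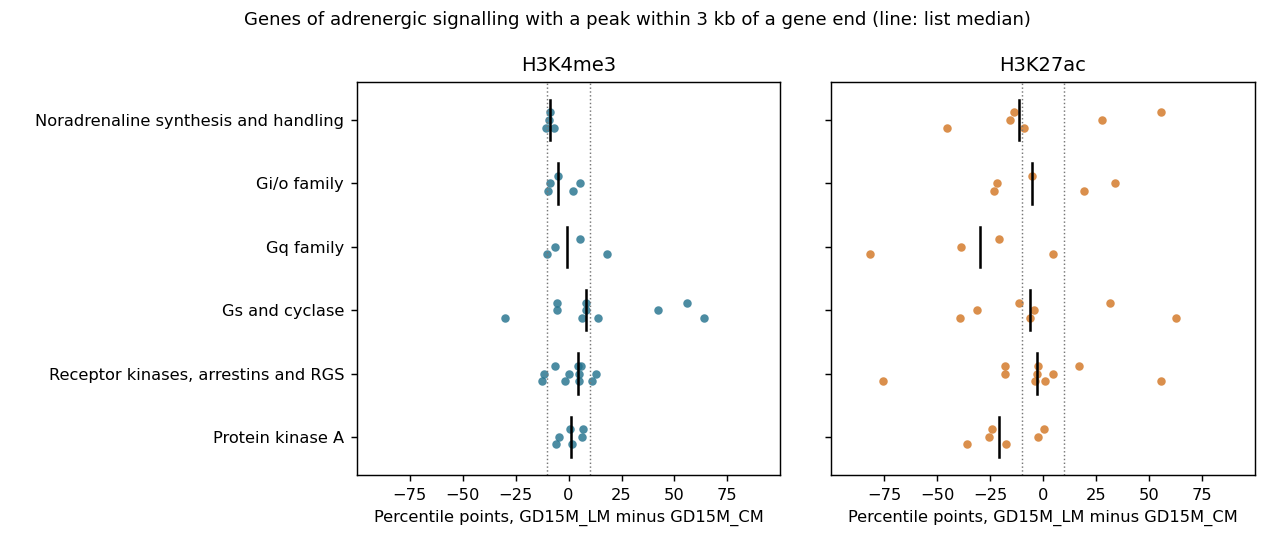
Difference in percentile points, GD15M_LM minus GD15M_CM (horizontal axis), of the best peak within 3 kb of a gene end for genes of adrenergic signalling in 6 groups. Each point is a gene with a peak in either list, the black line is the median of the group and dotted lines mark 10 points in either direction. Gs and cyclase genes reach 63.9 for H3K4me3, and the protein kinase A genes have a median of -20.9 for H3K27ac.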

How the data were processed

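The data analysed are 6 lists of H3K4me3 and H3K27ac peaks. The authors mapped the reads to Sus scrofa 11.1 with BWA 0.7.17-r1188, filtered duplicate and poorly mapped reads with SAMtools 1.9 and Picard 2.8.3, pooled both gilts of a group and called peaks with MACS2 2.2.6. The fold enrichment of a peak over IgG is the ratio deposited by the authors, and the scaling behind it was not given in the sources used here. The −log10 p value of a peak was also deposited by the authors. The names of the columns for −log10 p and −log10 q were unreadable in the deposited lists. The first was identified by its values in the study's own peak table, and the second was inferred and used for no result. The lists hold no read totals, so the depth behind a peak is unknown here and no interval is given. Pooling hides differences between gilts, and a longer list gives more genes a peak.

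Peaks were joined to RefSeq gene models of the same assembly by an overlap of at least 1 bp, with Python 3.11.15, pandas 2.3.3, NumPy 2.4.6 and matplotlib 3.10.9. Strand was not used, so either gene end stands for the start. On simulated data, 0 of 38400 best percentiles were wrong. No test across samples was made. The alternatives were a strict threshold (fold enrichment 5 or more, −log10 p 10 or more), other windows, joining of peaks less than 1 kb apart, assignment by peak centre, lists of equal length, ranking by −log10 p, and a limit of 20 points. Promoter and protein sequences were not analysed here.

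The receptor genes, pathway groups and marker lists were chosen with earlier results of these data known. All 8 receptor genes are named, together with the 5 genes most like ADRA2A in their percentiles, the 3 pathway genes per mark with the largest difference in each direction between the layers, and the markers of highest percentile. The markers MSLN, ITLN1 and S100B were not placed by symbol.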

Additional observations from a re-analysis of the deposited data

How the results depend on the processing

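No paired analysis was possible because peaks were called on pooled gilts, and for the same reason no gilt could be left out. The lists carry no read totals, so a gene without a peak may lie under the depth of its list. Of 186 alternative values for the counts and for ADRA2A, 127 stayed within the limits of a change and 59 moved. Of 139 for other single genes, 52 stayed, 86 moved and 1 turned a called difference. The last was that of ADRA1A between GD15M_CM and CD15M_CM for H3K4me3 (-7.09 when ranked by −log10 p). Differences under 10 points also changed sign: GD15M_LM minus CD15M_CM at ADRA1D for H3K27ac (-2.38 ranked by −log10 p, -12.4 with the 1 kb window) and GD15M_CM minus CD15M_CM at ADRB1 for H3K4me3 (-0.15 after merging).

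Under the strict threshold, receptor genes with an H3K4me3 peak within 20 kb fell to 4 in GD15M_CM, 6 in GD15M_LM and 5 in CD15M_CM. At a gene end they fell to 3, 5 and 4 in the same order. Those with H3K27ac fell to 0 in GD15M_CM, 1 in GD15M_LM and 1 in CD15M_CM for either window. Between the layers the strict threshold called 2 genes higher in GD15M_CM for H3K4me3, and for H3K27ac 1 higher in GD15M_LM and 0 in GD15M_CM. Between circular muscles it called 0 and 1 for H3K4me3 (GD15M_CM and CD15M_CM) and 1 higher in CD15M_CM for H3K27ac. Between GD15M_LM and CD15M_CM it called 0 higher in CD15M_CM for H3K27ac. With a limit of 20 points, H3K4me3 calls fell to 0 and 0 between circular muscles, and to 1 and 1 between GD15M_LM and CD15M_CM. The 20 kb window raised the H3K27ac calls for GD15M_LM over GD15M_CM to 5. Merging raised those for GD15M_LM over CD15M_CM to 2. Ranking by −log10 p called 0 receptor genes higher in GD15M_CM and 1 in CD15M_CM for H3K4me3 and 1 higher in GD15M_CM for H3K27ac. Lists of equal length called 1 receptor gene higher in GD15M_CM than in CD15M_CM for H3K27ac, and between GD15M_LM and CD15M_CM 1 higher in CD15M_CM for H3K4me3 and 3 higher in GD15M_LM for H3K27ac.

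Pathway genes higher in GD15M_CM than in GD15M_LM for H3K4me3 were 3 both when ranked by −log10 p and with equal lists. Ranked by −log10 p, 2 were higher in GD15M_CM than in CD15M_CM for H3K4me3 and 7 for H3K27ac, and for H3K4me3 2 in GD15M_LM and 4 in CD15M_CM. With equal lists 13 (H3K4me3) and 12 (H3K27ac) were higher in GD15M_LM than in CD15M_CM.

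ADRA2A kept the direction of all 6 differences under all alternatives run. Its H3K4me3 differences under ranking by −log10 p, merging, equal lists and the strict threshold were 24.98, 41.1, 28.6 and 58.3 points for GD15M_LM minus GD15M_CM. They were -8.99, -12.04, -5.93 and -14.3 for GD15M_CM minus CD15M_CM, and 16.0, 29.1, 22.7 and 43.9 for GD15M_LM minus CD15M_CM. Its H3K27ac differences were 51.8, 73.8, 86.1 and 91.9, then -49.7, -61.5, -72.6 and -21.5, then 2.14, 12.3, 13.5 and 70.4 in the same orders. The cause of these changes was not tested.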

Other observations

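ADRA2A and ADRB1 both lie on chromosome 14, 2.93 Mb apart, and each has an H3K4me3 peak over its whole model in every tissue. Their differences between the layers were in opposite directions, 27 points higher in GD15M_LM at ADRA2A and 43.5 points higher in GD15M_CM at ADRB1. H3K27ac accompanied H3K4me3 at ADRA2A in all 3 tissues and at ADRB1 in none.

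The H3K4me3 signal of GD15M_CM was divided into more peaks than that of GD15M_LM and CD15M_CM at ADRA1A (2 peaks against 1 and 1), at ADRA1B (3 against 1 and 1) and at ADRA2C (2 against 1 and 1). Within 20 kb it had fewer peaks at ADRA1D (1 against 2 in GD15M_LM and 2 in CD15M_CM) and ADRA2A (1 against 4 and 3), and ADRA2B and ADRB1 had 1 peak in each tissue. Over the whole list, H3K4me3 peaks were also shortest in GD15M_CM (median 760 bp, against 1007 bp in GD15M_LM and 800 bp in CD15M_CM). How often the signal is divided at other genes was not counted.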
